A study of Mus musculus with 6 samples.

Results

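The collagen chain genes are the rows whose symbol is Col, a number, a and a number, such as Col1a1, and the table held 44 of them among 24421 gene symbols. By the protein family each belongs to, 11 encode chains of fibrillar collagens, 8 encode chains of basement membrane collagens and 25 encode other collagens. RNA came from hearts of C57BL6/J mice aged 4 weeks, for which the labels name no genotype or treatment. RNA immunoprecipitation (RIP) pulls a protein out of a lysate with an antibody and sequences the RNA that comes with it. Of the 6 libraries, 2 came from Cnot3 RIP, 2 from control IgG RIP, called IgG RIP from here on, and 2 from Input, the lysate before precipitation. Cnot3 is a subunit of CCR4-NOT, the complex that shortens the poly(A) tails of mRNAs in the cytoplasm. The study text gives 2 experiments but not whether they used separate hearts, so p-values rest on variation among libraries that may be technical only.

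Collagens are secreted proteins of 3 chains wound around each other. In the wound part glycine recurs at every step of 3 residues, since no larger residue fits the core of the helix, and glycine codons begin with GG. Fibrillar collagens, types I, III and V in heart, form the tensile fibres between muscle cells and are made mainly by fibroblasts. Basement membrane collagens form sheets around capillaries and muscle cells, with type IV as the network and types XV and XVIII at its margin. The other collagens include the beaded filaments of type VI, the fibril-associated types XII and XIV, and the short chains of types VIII and X.

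The repeat can be read in the coding sequence, where it shows how the classes are built. The following 45-base stretches open the longest Gly-X-Y run of 4 genes, 1 fibrillar, 1 basement membrane and 2 short chains. Capitals mark the first 2 bases of the glycine codon that opens each Gly-X-Y triplet. The stretches are given in the coding direction and were taken from the GRCm38 (mm10) genome and the GENCODE annotation. They lie within single exons at chr2:27964080-27964124 (plus strand, Col5a1, fibrillar), chr8:11429447-11429491 (plus strand, Col4a2, basement membrane), chr16:57628048-57628092 (minus strand, Col8a1, other) and chr10:34394928-34394972 (plus strand, Col10a1, other).
Col5a1: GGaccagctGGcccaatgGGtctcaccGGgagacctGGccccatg
Col4a2: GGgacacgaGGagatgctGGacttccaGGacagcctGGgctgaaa
Col8a1: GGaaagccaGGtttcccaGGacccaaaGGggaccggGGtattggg
Col10a1: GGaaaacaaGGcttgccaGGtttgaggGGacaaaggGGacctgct
The run of unbroken triplets that starts with these stretches was 338 triplets long in Col5a1, 66 in Col4a2, 61 in Col8a1 and 61 in Col10a1. In Col1a1 it was 338 and in Col3a1 344 triplets, while in Col4a1, whose repeat is interrupted many times, the longest run was 40 triplets, although all its runs together made up 78.9% of the codons.

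Depth and composition differed between the libraries. Totals recovered from the deposited values were 15713318 to 33479580 reads, of which Rn45s, the ribosomal RNA precursor, took 51.1% to 79.2%, leaving 3407528 to 12500739 other reads. Collagen transcripts took 0.348% of these other reads in IgG RIP replicate 1 (exact 95% binomial interval 0.343% to 0.352%) and 0.765% in replicate 2 (0.759% to 0.772%). They took 0.851% in Cnot3 RIP replicate 1 (0.845% to 0.858%) and 0.300% in replicate 2 (0.297% to 0.303%). In Input they took 0.552% in replicate 1 (0.544% to 0.560%) and 0.398% in replicate 2 (0.393% to 0.402%). Intervals cover counting error only. The replicates of each group therefore differed in collagen content far beyond counting error, and IgG RIP replicate 2 and Cnot3 RIP replicate 1 held the most. Levels below are scaled CPM, reads scaled to a common library total and adjusted with TMM factors, which set the bulk of genes to the same level in all libraries.

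The lysate showed which collagens this heart tissue expressed. Per kb of transcript, the level in Input was highest for Col4a1, the main basement membrane chain, at 54.1 ± 10.1 scaled CPM per kb (SD, n = 2). Col3a1, the chain of type III fibrils, followed at 43.5 ± 11.3 and Col4a2, the partner of Col4a1, at 36.6 ± 5.38, and the Input values of neighbours in this order overlapped. Below a gap without overlap came Col15a1 of the basement membrane margin at 17.8 ± 3.25, the type I fibril chains Col1a2 at 17.7 ± 3.19 and Col1a1 at 16.0 ± 2.29, and the type VI chains Col6a2 at 14.2 ± 1.68 and Col6a1 at 14.2 ± 1.81. The next tier, again without overlap, held Col6a3, the long type VI chain, at 7.48 ± 1.09, Col5a1, which regulates fibril diameter, at 6.60 ± 1.27, and Col4a5 at 6.25 ± 0.819. Col8a1, a short chain of vessel walls, was at 4.64 ± 0.0561, Col5a2 at 4.36 ± 1.03 and Col14a1 of the fibril surface at 2.83 ± 0.671. Col18a1, the precursor of endostatin, was at 1.67 ± 0.665 and Col12a1, another fibril-associated chain, at 0.179 ± 0.0871. Col7a1, the anchoring fibril chain of skin, was lowest of the chains that passed the filter, at 0.0256 ± 0.00803.

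**Figure D1:**
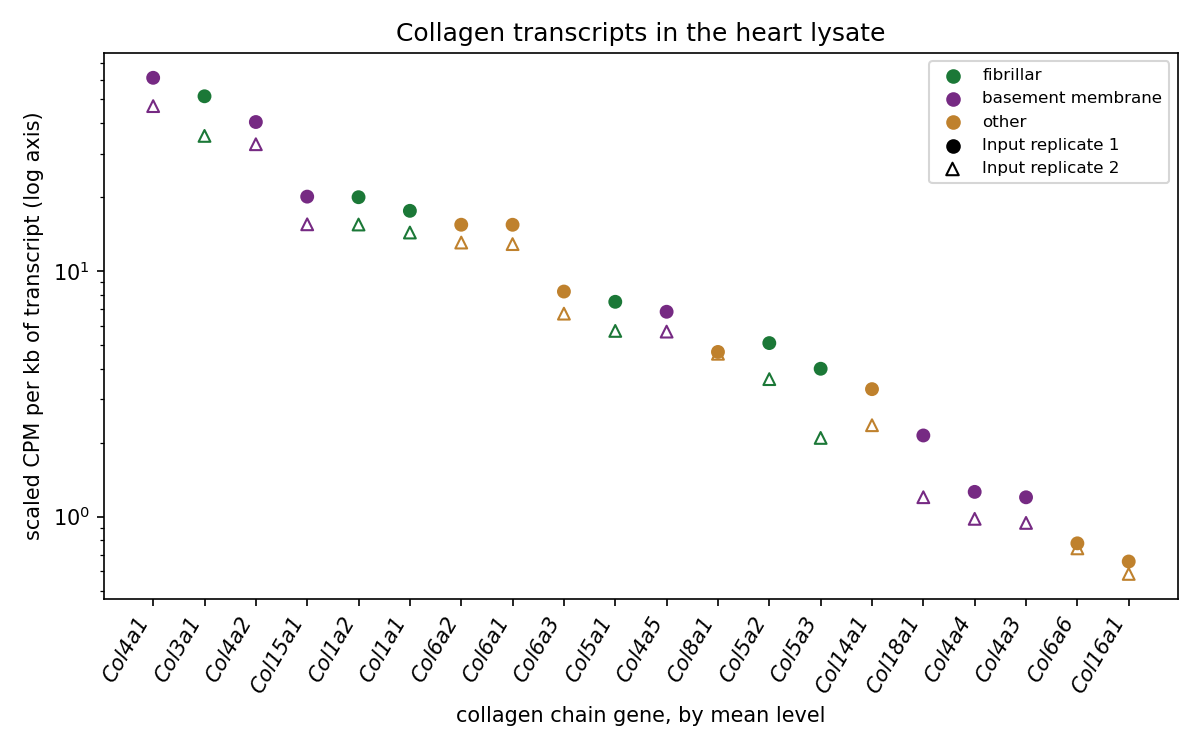
Scaled CPM per kb of transcript (log axis) of the 20 collagen chain genes with the highest mean level in Input, with 1 symbol per Input library and the colour giving the class. Col4a1, Col3a1 and Col4a2 stand above all others, and replicate 1 lies above replicate 2 in nearly every gene, most in Col5a3.

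A filter on low counts kept 33 of the 44 genes, 8 fibrillar, 8 basement membrane and 17 other. The 11 that did not pass included all chains of types II and IX, collagens of cartilage. Col2a1, the main cartilage chain, had 1 read in 1 library, and Col9a1 had 0 reads in all 6 libraries, where a count of 0 allows up to 3 reads or 0.0899 to 0.277 scaled CPM. The other 9 were Col6a4, Col6a5, Col9a2, Col9a3, Col11a1, Col19a1, Col22a1, Col24a1 and Col26a1, with at most 15 reads in a library.

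The 3 classes kept nearly the same proportions in every group. Basement membrane chains gave 49.4% ± 1.51 (SD, n = 2) of collagen reads in IgG RIP, 50.3% ± 1.86 in Cnot3 RIP against 49.3% ± 0.575 in Input. Fibrillar chains gave 34.1% ± 1.12, 34.0% ± 0.424 and 34.8% ± 1.39, and other chains 16.5% ± 2.63, 15.7% ± 2.28 and 15.9% ± 0.819, in the same order. For all 3 classes each difference between group means was within the larger of the SDs.

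The chains of 1 collagen kept nearly the same ratio to each other while their levels moved. Type I fibrils hold Col1a1 and Col1a2 chains, and the level per kb of Col1a1 over that of Col1a2 was 0.899 and 1.04 in IgG RIP, 1.06 and 0.870 in Cnot3 RIP against 0.880 and 0.928 in Input. For Col4a1 over Col4a2 the ratio was 1.18 and 1.46 in IgG RIP, 1.47 and 1.42 in Cnot3 RIP against 1.51 and 1.43 in Input. These 2 genes face away from each other on chromosome 8, with overlapping ends and starts 21 bases apart, Col4a1 at 11198423 to 11312826 on the minus strand and Col4a2 at 11312805 to 11449287 on the plus strand (GRCm38). The ratio of Col6a1 to Col6a2 was 0.986 to 1.21 and that of Col5a1 to Col5a2 was 1.47 to 1.68 over the 6 libraries. The groups overlapped in the ratios of types I and IV. For type V, IgG RIP lay above Input without overlap. For type VI no groups overlapped, with IgG RIP at 1.21 and 1.09, Cnot3 RIP at 1.02 and 1.0875, and Input at 0.9997 and 0.986, and 2 libraries against 2 cannot give an exact p under 0.33.

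In Col1a1, Col3a1 and Col4a1 the 2 libraries of each antibody differed more than the group means did. Col1a1 (chromosome 11, 94936224 to 94953042, plus strand) stood at 87.4 and 162 scaled CPM in IgG RIP replicates 1 and 2, 174 and 66.4 in Cnot3 RIP against 104 and 85.1 in Input. Col3a1 (chromosome 1, 45311538 to 45349706, plus strand) stood at 195 and 365 in IgG RIP, 411 and 163 in Cnot3 RIP against 286 and 198 in Input. Col4a1 stood at 293 and 582, 680 and 251, and 405 and 311. In these 3 genes the highest value was in Cnot3 RIP replicate 1, the next in IgG RIP replicate 2 and the lowest in Cnot3 RIP replicate 2, so the antibody groups overlapped. Col15a1 (chromosome 4, 47208161 to 47313167, plus strand) was at 86.8 and 168 in IgG RIP, 180 and 71.7 in Cnot3 RIP against 104 and 80.2 in Input. Col6a3 (chromosome 1, 90765923 to 90843971, minus strand) was at 90.6 and 127, 131 and 63.5, and 74.3 and 60.4. Of the genes given here Col8a1 (chromosome 16, 57624258 to 57754737, minus strand) varied least, at 20.4 and 23.0 in IgG RIP, 24.4 and 17.6 in Cnot3 RIP against 23.9 and 23.5 in Input.

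**Figure D2:**
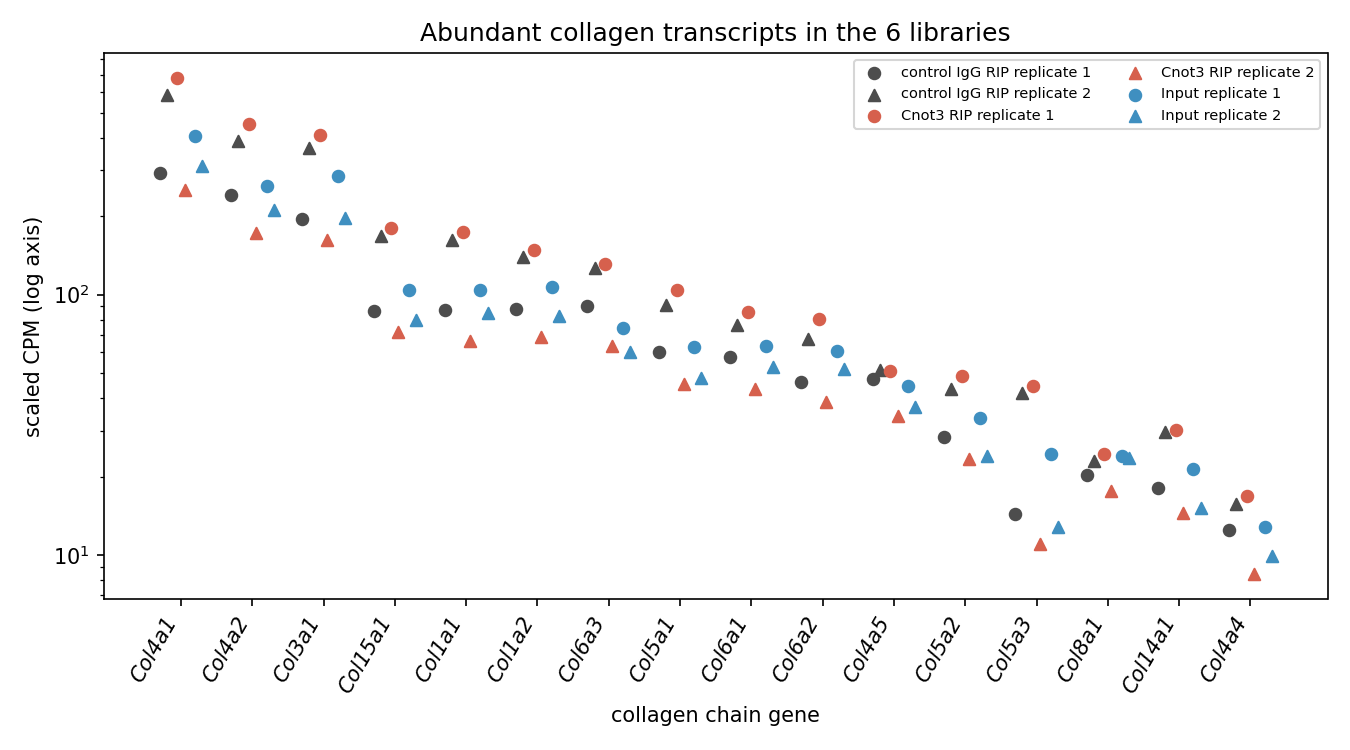
Scaled CPM (log axis) of the 16 collagen chain genes with a mean of at least 10 scaled CPM, with colour for the group and shape for the replicate. In each gene IgG RIP replicate 2 and Cnot3 RIP replicate 1 lie above the other library of their group, as in Col4a1 at 582 against 293 and 680 against 251.

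All 16 collagen genes with a mean of at least 10 scaled CPM were higher in IgG RIP replicate 2 than in replicate 1, by a median ratio of 1.56 (ratios are of scaled CPM plus 0.25). All 16 were higher in Cnot3 RIP replicate 1 than in replicate 2, by a median of 2.12, and higher in Input replicate 1 than in replicate 2, by a median of 1.29. Of the 4810 genes of any kind at that level, 42.8%, 31.7% and 43.8% were higher in the same directions, with median ratios of 0.952, 0.873 and 0.968. These are descriptions of pairs of libraries, with no replicate and no test. Among the 16 the largest ratios were those of Col5a3, a type V chain, at 2.89 in IgG RIP and 4.00 in Cnot3 RIP. Col4a1 had 1.99 and 2.70, Col15a1 1.93 and 2.51, Col3a1 1.87 and 2.52, and Col1a1 1.85 and 2.62. At the other end, Col4a5 had 1.07 and 1.49 and Col8a1 1.13 and 1.38. By class, the tested members had medians of 1.64 for fibrillar, 1.72 for basement membrane and 1.33 for other chains in IgG RIP, and 2.28, 2.16 and 1.93 in Cnot3 RIP.

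The abundant collagens differed less between the high libraries of the antibodies than within an antibody. Cnot3 RIP replicate 1 over IgG RIP replicate 2 gave a median ratio of 1.08 for the 16 abundant collagens, 15 of them above 1, and Cnot3 RIP replicate 2 over IgG RIP replicate 1 gave 0.777, with 0 of 16 above 1. Of all 4810 genes at that level, 61.5% (median 1.04) and 54.6% (median 1.05) were above 1 in these pairs. The 17 tested collagens under 10 scaled CPM had medians of 0.830 and 0.630, with 7 and 4 above 1. Replicate numbers thus set high against low: Cnot3 RIP replicate 1 over IgG RIP replicate 1 gave 1.72 and replicate 2 over replicate 2 gave 0.495.

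**Figure D3:**
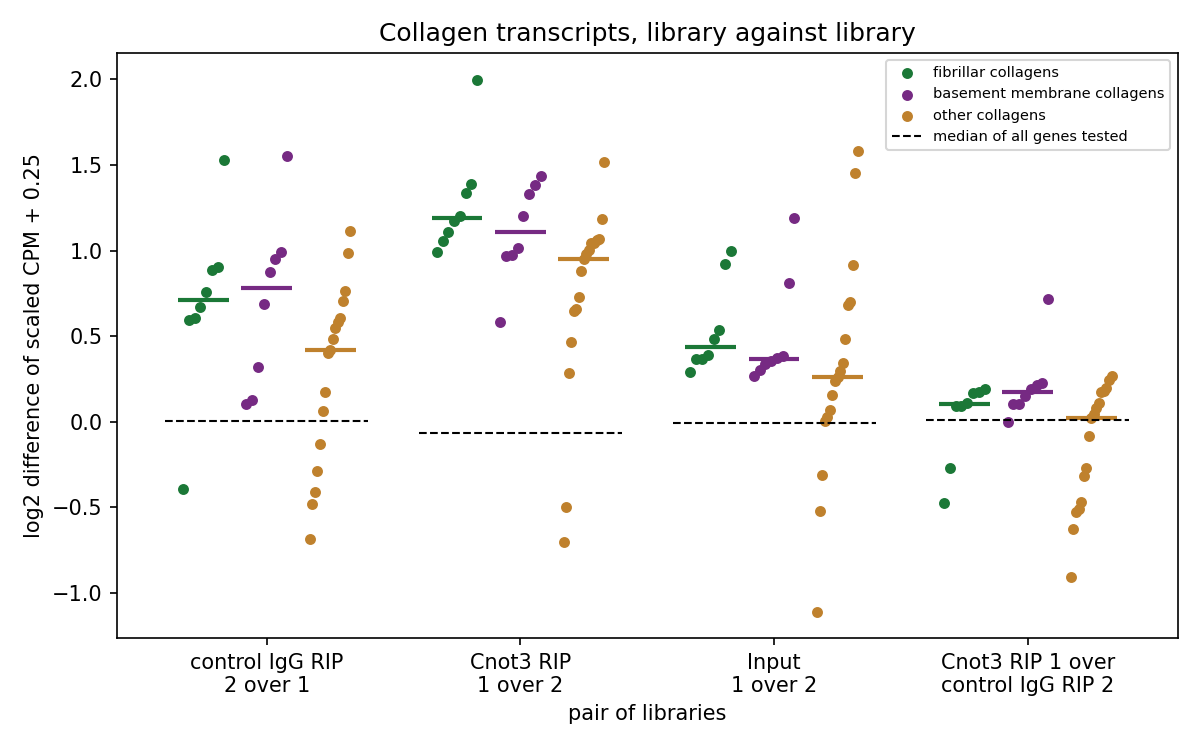
Log2 difference of scaled CPM plus 0.25 between 2 libraries for the 33 tested collagen genes, 1 point per gene, with a coloured bar for each class median and a dashed line for the median of all 13010 tested genes. Within each group 1 library holds more of nearly all collagens, and Cnot3 RIP replicate 1 lies close to IgG RIP replicate 2 in the abundant chains.

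Markers of heart cell types moved in part with these libraries. Summed over 9 smooth muscle and pericyte markers, the level was 446 and 620 scaled CPM in IgG RIP, 623 and 384 in Cnot3 RIP against 539 and 476 in Input. Summed over 10 endothelial markers it was 445 and 583, 593 and 368, and 476 and 454. Both sums were highest in the same 2 libraries as the collagens. Fibroblast markers other than collagens (10 genes) summed to 609 and 633 in IgG RIP, with 665 and 508 in Cnot3 RIP against 618 and 716 in Input. Cardiomyocyte markers (7 genes) were highest in IgG RIP replicate 1, at 34361 against 18784 in replicate 2, with 23538 and 24823 in Cnot3 RIP against 18193 and 21625 in Input, and leukocyte markers (8 genes) summed to 70.5 to 137. Gene by gene, IgG RIP replicate 2 over replicate 1 gave median ratios of 1.26 for fibroblast (7 of 10 above 1), 1.27 for endothelial (8 of 10), 1.51 for tested smooth muscle and pericyte (7 of 8) and 0.960 for cardiomyocyte markers (2 of 7). Cnot3 RIP replicate 1 over replicate 2 gave 1.12, 1.51, 1.57 and 1.002, with 8 of 10, 10 of 10, 8 of 8 and 4 of 7 above 1. Leukocyte markers gave 1.05 (5 of 8 above 1) in the IgG RIP pair and 1.48 (7 of 8) in the Cnot3 RIP pair. Input replicate 1 over replicate 2 gave 1.02 for fibroblast (5 of 10 above 1) and 1.04 for endothelial markers (7 of 10). In that pair smooth muscle and pericyte markers gave 1.10 (7 of 8), cardiomyocyte markers 0.892 (0 of 7) and leukocyte markers 0.870 (2 of 8). No marker was at 0 in any library, and the part of these cell types in the collagen levels was not tested. In bulk tissue, fewer cells of a type and less RNA per cell cannot be told apart.

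Cnot3 RIP against IgG RIP compares the transcripts that came with Cnot3 and those that came with a control antibody. Of the 33 collagens tested with limma, 0 were called at an adjusted p under 0.05, beside 1.81% of all 13010 genes. At an unadjusted p under 0.05 there were 0 higher and 4 lower, beside 17.3% of all genes. edgeR's quasi-likelihood test called 0 (2.28% of all genes), and DESeq2 called 1 lower, Col10a1 (5.53% of all genes). The median log2 fold change was −0.14 for fibrillar, −0.11 for basement membrane and −0.16 for other collagens, beside −0.0029 for all genes. These medians turned to 0.18, 0.21 and 0.09 with scaling by library size only, which moved the median of all genes to 0.30, so that relative to it they were −0.12, −0.09 and −0.21. Without Cnot3 RIP replicate 1 the medians were −0.76, −0.70 and −0.65, without Cnot3 RIP replicate 2 they were 0.49, 0.58 and 0.22, without IgG RIP replicate 1 they were −0.57, −0.45 and −0.50, and without IgG RIP replicate 2 they were 0.23, 0.30 and 0.02.

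The main heart chains gave log2 fold changes near 0 with wide intervals. Col1a1 had −0.14 (SE 0.44, 95% interval −1.14 to 0.85) and its partner Col1a2 −0.13 (SE 0.38, −0.97 to 0.72). Col3a1 had −0.05 (SE 0.45, −1.07 to 0.97), Col5a1 −0.11 (SE 0.38) and Col5a2 −0.05 (SE 0.37). Among basement membrane chains Col4a1 had 0.00305 (SE 0.48, −1.07 to 1.07), Col4a2 −0.13 (SE 0.43), Col15a1 −0.09 (SE 0.44) and Col18a1 0.33 (SE 0.54). Col4a6, a type IV chain at 0.577 to 2.24 scaled CPM, was highest of its class at 0.67 (SE 0.51), and Col4a3, a chain of kidney and lung basement membranes, lowest at −0.25 (SE 0.33). Of the type VI chains Col6a1 had −0.12 (SE 0.32), Col6a2 0.0059 (SE 0.35) and Col6a3 −0.23 (SE 0.34), and of the fibril-associated chains Col12a1 had −0.21 (SE 0.50) and Col14a1 −0.15 (SE 0.37). The narrowest interval was that of Col8a1, at −0.06 (SE 0.23, −0.59 to 0.46). Col25a1, a transmembrane chain, was highest of the other class at 0.22 (SE 0.49). A p that misses the threshold does not show that a transcript was recovered alike with both antibodies, and the interval of Col4a1 leaves room for a log2 difference of up to 1.07 in either direction.

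**Figure D4:**
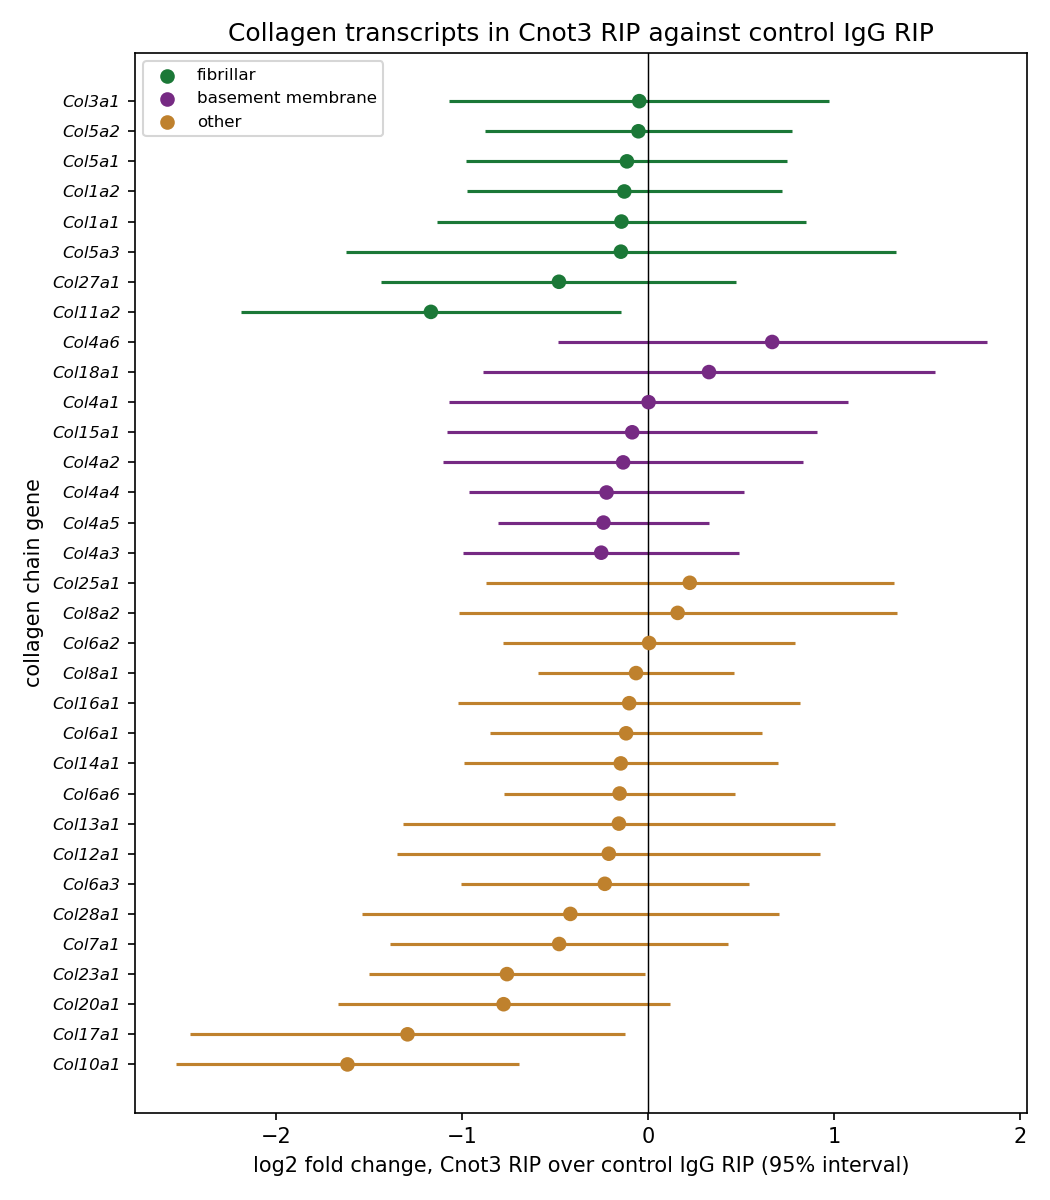
Log2 fold change of Cnot3 RIP over IgG RIP for the 33 tested collagen genes, with 95% limma intervals, grouped by class. Most points lie between −0.5 and 0, and Col10a1, Col17a1 and Col11a2 lie lowest, at −1.62, −1.29 and −1.17.

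The chains farthest from 0 were of low abundance. Col10a1, a short chain known from growth plate cartilage (chromosome 10, 34389981 to 34397085, plus strand), stood at 4.90 and 3.62 scaled CPM (85 and 80 reads) in IgG RIP, 1.82 and 0.779 (51 and 26 reads) in Cnot3 RIP against 0.924 and 0.483 (10 and 10 reads) in Input. Both IgG RIP values lay above all others, and Cnot3 RIP and Input overlapped. Its log2 fold change in Cnot3 RIP against IgG RIP was −1.62 (SE 0.41). That missed the threshold in limma (adjusted p = 0.0858) and in edgeR's quasi-likelihood test (adjusted p = 0.0842) and passed it in DESeq2 (adjusted p = 0.0247). Leaving out 1 library in turn, the limma log2 fold change of Col10a1 ranged from −2.09 to −1.10. Col11a2, a minor fibrillar chain of cartilage (chromosome 17, 34039437 to 34066685, plus strand), had 2.94 and 2.17 in IgG RIP, 1.496 and 0.630 in Cnot3 RIP against 0.924 and 0.338 in Input, and fell short of the threshold at −1.17 (SE 0.45, limma adjusted p = 0.224). Col17a1, a transmembrane chain of epithelial attachment, had 3.29 and 1.95, 1.18 and 0.660, and 1.94 and 0.483, and −1.29 (SE 0.52, limma adjusted p = 0.239). In these 2 genes, too, the antibody groups did not overlap. In all, the 2 groups did not overlap in 6 of 33 collagens, beside 45.9% of all genes. All 6 were lower in Cnot3 RIP and all had a mean under 10 scaled CPM, the other 3 being Col20a1, Col23a1 and Col7a1.

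**Figure D5:**
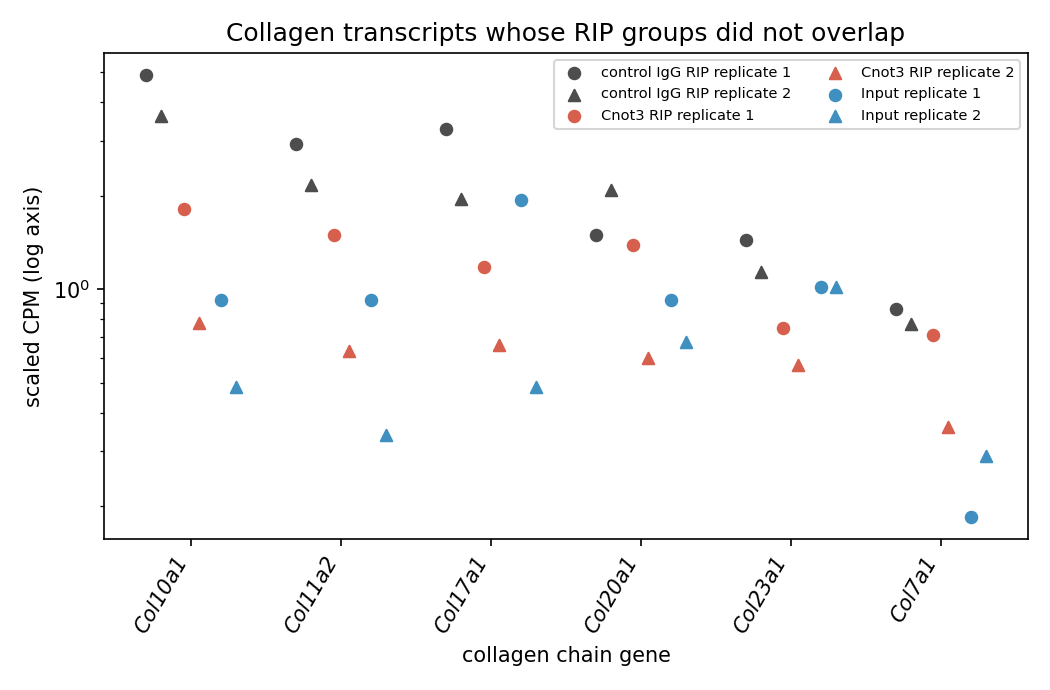
Scaled CPM (log axis) of the 6 collagen genes in which Cnot3 RIP and IgG RIP did not overlap, with colour for the group and shape for the replicate. IgG RIP lies on top in each gene, as in Col10a1, where its libraries are at 4.90 and 3.62.

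IgG RIP against Input showed what the procedure recovered without the Cnot3 antibody. It shares the control libraries with the comparison above. Of the collagens, 1 of 33 was called higher by limma and 0 lower, beside 4.07% of all genes called. That gene was Col10a1, at 4.26 ± 0.903 against 0.703 ± 0.312 scaled CPM (SD, n = 2), a ratio of means of 6.06. With 0.25 added before the log, the fitted fold was 4.82 (log2 fold change 2.27, SE 0.41, 95% interval 1.34 to 3.19, limma adjusted p = 0.0256). edgeR's quasi-likelihood test also called Col10a1 (2.61% of all genes) and DESeq2 called Col10a1 and Col11a2 (5.46% of all genes). At an unadjusted p under 0.05 there were 5 higher and 0 lower, beside 24.9% of all genes. This call did not hold without IgG RIP replicate 1 (adjusted p = 0.237), without IgG RIP replicate 2 (0.0910) and without Input replicate 2 (0.193), with log2 fold changes of 2.05, 2.46 and 1.94. Col10a1 lies inside an intron of 1 transcript of Nt5dc1, which is read from the opposite strand and shares 18 exon bases with it. Whether the counting used strand is not given in the sources used here, so reads of the 2 genes may not be separable. Nt5dc1 itself stood at 3.60 to 6.77 scaled CPM over the 6 libraries, with a limma adjusted p of 0.751 in IgG RIP against Input and 0.793 in Cnot3 RIP against IgG RIP. Col11a2 was next, at 1.74 (SE 0.45, limma adjusted p = 0.0654).

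The groups did not overlap in 13 of 33 collagens in this comparison, beside 58.9% of all genes. The class medians were 0.38 for fibrillar, 0.25 for basement membrane and 0.56 for other chains, beside 0.0073 for all genes. Comparisons with Input depend on the scaling, since library size only moved the median of all genes to 0.70 here and to 1.02 in Cnot3 RIP against Input, and relative to those the class medians stayed above 0. Without IgG RIP replicate 2 they were −0.05, −0.02 and 0.43, and without Input replicate 2 they were 0.10, 0.07 and 0.26. Among abundant chains Col6a3 had 0.68 (SE 0.34), Col5a1 0.43 (SE 0.38), Col15a1 0.40 (SE 0.44), Col4a2 0.38 (SE 0.43) and Col1a1 0.34 (SE 0.44), while Col3a1 had 0.17 (SE 0.45), Col6a2 −0.01 (SE 0.35) and Col8a1 −0.13 (SE 0.23). Col8a2, the partner of Col8a1, was lowest at −0.74 (SE 0.52), from 3 and 13 reads in IgG RIP against 11 and 11 in Input.

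Cnot3 RIP against Input gave 0 called collagens of 33 in limma, beside 8.32% of all genes. At an unadjusted p under 0.05 there were 1 higher and 0 lower, beside 27.2% of all genes. edgeR's quasi-likelihood test called 0 (8.89% of all genes) and DESeq2 called 0 (14.2% of the 10992 genes it gave an adjusted p). The groups did not overlap in 5 collagens, beside 57.5% of all genes. The class medians were 0.25, 0.23 and 0.18 for fibrillar, basement membrane and other chains, beside 0.06 for all genes, and all 3 fell below 0 without Cnot3 RIP replicate 1 (−0.38, −0.38 and −0.30) and without Input replicate 2 (−0.02, −0.14 and −0.07). Col1a1 had 0.19 (SE 0.44), Col3a1 0.12 (SE 0.45), Col4a1 0.22 (SE 0.48) and Col6a1 0.08 (SE 0.32). Col25a1 was farthest from 0 at 1.47 (SE 0.49, limma adjusted p = 0.0920), with 0 reads in Input replicate 1, 6 in Input replicate 2 and 17 and 32 in Cnot3 RIP. In the other direction Col8a2 had −0.58 (SE 0.52).

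CCR4-NOT is brought to many mRNAs by microRNAs, and the miR-29 family is known for sites in collagen 3′ UTRs. The 3 mouse members, from RefSeq, share the seed at bases 2 to 8, shown in capitals.
mmu-miR-29a-3p: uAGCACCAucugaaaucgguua
mmu-miR-29b-3p: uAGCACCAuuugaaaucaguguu
mmu-miR-29c-3p: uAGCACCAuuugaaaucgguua
The 7 bases that pair with the seed, TGGTGCT, were searched on the sense strand of the 3′ UTR of 1 transcript per gene. They occurred in 18 of the 33 tested collagens (54.5%), beside 14.5% of the 12016 tested genes with a 3′ UTR, while the median 3′ UTR length was 959 bases in the collagens and 1025.5 in all genes. By class the match was present in 6 of 8 fibrillar, 7 of 8 basement membrane and 5 of 17 other chains. In Col1a1, Col3a1, Col4a1, Col15a1 and Col5a2 the site, in capitals, read as follows in the sense direction. They lie at chr11:94952529-94952552, chr1:45348973-45348996, chr8:11199754-11199777, chr4:47312491-47312514 and chr1:45374958-45374981 (GRCm38, the third and the fifth on the minus strand).
Col1a1: aggaatttcTGGTGCTatagaagc
Col3a1: atgtctcaaTGGTGCTataataaa
Col4a1: gtcacaacaTGGTGCTactccccc
Col15a1: tccacatatTGGTGCTagattctg
Col5a2: ttttaatgaTGGTGCTaaaattat
Col1a2, Col6a1, Col12a1, Col14a1, Col18a1 and Col10a1 had no match in the transcript searched. In Cnot3 RIP against IgG RIP the median log2 fold change was −0.12 over the 18 collagens with a match and −0.16 over the 15 without, and against Input it was 0.23 and 0.21. A match is a description of letters, not of a working site. The letters ATTTA, the core of AU-rich elements that also bring CCR4-NOT to mRNAs, occurred in 66.7% of the tested collagens and 67.3% of the 12016 tested genes with a 3′ UTR.

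Genes that make, cut, bind or surround collagen gave few calls. Among 66 tested genes for chain folding, propeptide cleavage and crosslinking, collagen receptors, degradation and other basement membrane proteins, limma called 0 in each of the 3 comparisons. At an unadjusted p under 0.05 there were 4 higher and 2 lower in Cnot3 RIP against IgG RIP, 1 and 4 in Cnot3 RIP against Input, and 7 and 1 in IgG RIP against Input, beside 17.3%, 27.2% and 24.9% of all genes in either direction. edgeR's quasi-likelihood test called 0 in all 3, and DESeq2 called 0, 1 (Adamts3) and 2 (Lama2 and Lama5). Of all genes, limma called 1.81%, 8.32% and 4.07% in these comparisons, in the same order. edgeR's test called 2.28%, 8.89% and 2.61% of all genes. DESeq2 called 5.53%, 14.2% (of the 10992 genes it gave an adjusted p) and 5.46%. Serpinh1, the collagen chaperone HSP47, stood at 45.3 and 63.2 scaled CPM in IgG RIP, 69.7 and 44.5 in Cnot3 RIP against 98.8 and 90.7 in Input. Its log2 fold change was −0.82 (SE 0.28, limma adjusted p = 0.115) in IgG RIP and −0.76 (SE 0.28, 0.118) in Cnot3 RIP, each against Input, and the values of both RIP groups lay below those of Input. Lama2, a laminin chain of the muscle basement membrane, stood at 250 and 227 in IgG RIP, 207 and 145 in Cnot3 RIP against 120 and 123 in Input, with 0.97 (SE 0.25, limma adjusted p = 0.0624) in IgG RIP against Input. Next in its list was Lama5, another laminin chain, at 0.87 (SE 0.26, 0.0849).

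In Cnot3 RIP against IgG RIP, the members of smallest p in each of these lists did not pass the limma threshold, with adjusted p from 0.193 to 0.650. Among folding genes these were Fkbp14, a prolyl isomerase of the endoplasmic reticulum, at a log2 fold change of 1.17 (SE 0.43), and P3h2, a prolyl 3-hydroxylase, at 0.93 (SE 0.34). Among the enzymes that cut propeptides these were Adamts14 at −1.29 (SE 0.46) and Bmp1 at −0.67 (SE 0.30). Of the receptors, Ddr1, a receptor tyrosine kinase, had 0.59 (SE 0.25) and Itga10, an integrin chain, −0.86 (SE 0.43). Of the proteases, cathepsin Ctsk had 0.39 (SE 0.32) and Mmp3 0.45 (SE 0.39), and in the basement membrane Agrn had −0.78 (SE 0.31) and Lama5 −0.55 (SE 0.26). Against Input, Adamts3, which cuts fibrillar propeptides, came nearest to the threshold, at 1.13 in Cnot3 RIP (SE 0.31, limma adjusted p = 0.0559).

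Of 12 tested fibril-associated matrix proteins, limma and edgeR's quasi-likelihood test each called 1, Ctgf, in both comparisons of Cnot3 RIP and 0 in IgG RIP against Input. DESeq2 called Ctgf in the same comparisons, 0 in IgG RIP against Input, and also Dcn, a proteoglycan that binds fibrils, as lower in Cnot3 RIP than in Input. At an unadjusted p under 0.05 in limma there were 1 higher and 0 lower in Cnot3 RIP against IgG RIP. There were 1 and 1 in Cnot3 RIP against Input, and 1 and 2 in IgG RIP against Input. Of all genes, 17.3%, 27.2% and 24.9% passed that threshold in these comparisons. The adjusted threshold was passed by 1.81%, 8.32% and 4.07% in limma and by 2.28%, 8.89% and 2.61% in edgeR. In DESeq2 it was passed by 5.53%, 14.2% (of the 10992 genes given an adjusted p) and 5.46%. Ctgf, a matricellular protein known to go with collagen synthesis, stood at 18.4 and 16.8 scaled CPM in IgG RIP, 48.4 and 132 in Cnot3 RIP against 17.4 and 22.1 in Input. The fitted fold was 4.51 in Cnot3 RIP over IgG RIP (2.17 on the log2 scale, SE 0.40, limma adjusted p = 0.0361) and 4.05 over Input (2.02, SE 0.40, 0.0230). Its higher Cnot3 RIP value was in replicate 2, the library with the lowest collagen levels. Against IgG RIP this was not called without IgG RIP replicate 1 (limma adjusted p = 0.327) or replicate 2 (0.112), nor without replicate 2 of Cnot3 RIP (0.0658), where the log2 fold change was 1.46. It was not called with no filter on low counts (0.0704) or with only the groups compared in the fit (0.0581) either. Against Input it was not called without Cnot3 RIP replicate 2 (0.0508), Input replicate 1 (0.115) or Input replicate 2 (0.128).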

How the data were processed

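The authors deposited 1 table of CPM per gene symbol and library, which include Rn45s. Per the submitters' processing notes reads were handled against mm10 with TopHat2 2.1.0, Bowtie2 2.2.5, edgeR, FastQC and CASAVA 1.8. Counter, annotation, library kit and strand setting were not given in the sources used here. The smallest step between low values gave the worth of 1 read, and all values were whole reads within 0.01 read. From these reads TMM factors were computed (edgeR 4.0.16), and limma 3.58.1 (R 4.3.3, trended) modelled log2 values of scaled CPM with 0.25 added over all 6 libraries with 3 group means, with Benjamini-Hochberg adjustment over the 13010 genes kept by filterByExpr at a minimum count of 10. The fit had 3 residual and 6.24 prior degrees of freedom. Fold changes on this scale understate those of low genes. edgeR's quasi-likelihood test and DESeq2 1.42.0 on the recovered reads were alternatives. Levels per kb use 1 transcript per gene from GENCODE M21, the one with a 3′ UTR and the longest coding sequence. Named are the main heart chains, members called in any comparison, the highest and lowest of each class and, in each list of other collagen genes, the called members or those of smallest p. Members and lists were chosen with earlier results of these data known.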

Additional observations from a re-analysis of the deposited data

How the results depend on the processing

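Class medians and calls moved with the scaling and with single libraries, and depth limits the 17 tested chains under 10 scaled CPM. The cause of the changes below was not tested. The number of collagens called in Cnot3 RIP against IgG RIP, 0 here, was 1 with DESeq2, and that in IgG RIP against Input, 1 here, was 2 with DESeq2 and 2 with only the groups compared in the fit. Of all genes, DESeq2 called 5.53% and 5.46% in these comparisons, beside 1.81% and 4.07% in the fit reported. The next paragraph gives the calls over all genes in the other fits, which also moved. Scaling by library size only moved the median of all genes to 0.30, 1.02 and 0.70 in the 3 comparisons. It called 20 of 33 collagens higher in Cnot3 RIP than in Input, beside 7759 of all 13010 genes in either direction. In IgG RIP against Input it called 9 of 33 higher, beside 4393 of all 13010 genes. With this scaling the medians of fibrillar, basement membrane and other chains were 1.29, 1.29 and 1.16 in Cnot3 RIP against Input. In IgG RIP against Input they were 1.14, 1.01 and 1.28. Leaving out 1 library gave 0 to 1 called collagens for Cnot3 RIP against IgG RIP and 0 to 2 for IgG RIP against Input. Over the same fits the class medians in that order ranged from −0.76 to 0.49, −0.70 to 0.58 and −0.65 to 0.22 for Cnot3 RIP against IgG RIP and from −0.38 to 0.86, −0.38 to 0.87 and −0.30 to 0.72 for Cnot3 RIP against Input, and the fibrillar median from −0.054 to 0.73 for IgG RIP against Input.

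Over all genes, the 236 calls of Cnot3 RIP against IgG RIP were 625 with library size only, 35 with no filter, 720 with DESeq2, 112 with only the groups compared, and 0 to 1306 without 1 library. The 1083 calls of Cnot3 RIP against Input were 7759 with library size only, 638 with library size without Rn45s, 548 with no filter, and 12 to 1970 without 1 library. The 530 calls of IgG RIP against Input were 4393 with library size only, 258 with library size without Rn45s, 339 with edgeR's quasi-likelihood test, 1002 with only the groups compared, and 20 to 895 without 1 library.

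The replicate numbers were not taken to pair the libraries, since they did not deviate together in every pair of groups: the deviations of same-numbered libraries had r = −0.32 between IgG RIP and Cnot3 RIP, −0.33 between IgG RIP and Input and 0.34 between Cnot3 RIP and Input across genes. With the replicate number as a block, 1 of 33 collagens (Col10a1, limma adjusted p = 0.0338) was called in Cnot3 RIP against IgG RIP, beside 385 of 13010 genes. In IgG RIP against Input, 2 of 33 collagens were called, beside 325 of 13010 genes. Whether the numbers are crossed in 1 group was not tested. Crossed numbers as a replicate block, an alternative chosen after seeing the data, gave 3 collagens beside 1471 of all genes in Cnot3 RIP against IgG RIP. That fit left out Input, so the genes it tested need not be the same 13010.

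Single chains changed sign, none of them called in the fit reported. Not all were near 0 in that fit, as Col8a2 was at −0.58 in Cnot3 RIP against Input. With library size only these were Col12a1 0.078, Col14a1 0.17, Col15a1 0.23, Col1a1 0.18, Col1a2 0.19, Col3a1 0.27, Col4a2 0.18, Col4a3 0.059, Col5a1 0.20, Col5a2 0.26, Col6a1 0.20, Col6a3 0.086 and Col8a1 0.25 for Cnot3 RIP against IgG RIP, Col4a3 1.02, Col6a2 1.07, Col8a1 0.87 and Col8a2 0.15 for Cnot3 RIP against Input, and Col18a1 0.64, Col4a6 0.35, Col6a2 0.75 and Col8a1 0.62 for IgG RIP against Input. In Cnot3 RIP against IgG RIP others were Col4a1 −0.028 and Col6a2 −0.025 with DESeq2 size factors, Col3a1 0.019, Col5a2 0.014 and Col8a1 0.00078 with library size without Rn45s, Col4a1 −0.059 and Col6a2 −0.055 with a filter at a mean of 1 CPM, Col3a1 0.032 and Col5a2 0.010 with edgeR's quasi-likelihood test, Col3a1 0.0043 with DESeq2, and Col4a1 −0.036 and Col6a2 −0.033 with only the groups compared. In Cnot3 RIP against Input they were Col6a1 −0.0098 with library size without Rn45s, Col4a3 0.011 and Col6a2 0.039 with no filter, Col4a3 0.049 and Col6a2 0.085 with edgeR's quasi-likelihood test, and Col4a3 0.024 and Col6a2 0.061 with DESeq2. In IgG RIP against Input they were Col6a2 0.0054 with a filter at a mean of 1 CPM, Col18a1 0.085 and Col6a2 0.010 with edgeR's quasi-likelihood test, and Col18a1 0.071 and Col6a2 0.014 with DESeq2. Leaving out 1 library in turn, which assumes that the lone sample of its group varies like the others, log2 fold changes of Cnot3 RIP against IgG RIP ranged for Col12a1 −0.95 to 0.55, Col14a1 −0.65 to 0.38, Col15a1 −0.74 to 0.59, Col18a1 −0.48 to 1.10, Col1a1 −0.82 to 0.56, Col1a2 −0.67 to 0.43, Col25a1 −0.092 to 0.51, Col3a1 −0.70 to 0.63, Col4a1 −0.70 to 0.73, Col4a2 −0.81 to 0.57, Col4a3 −0.74 to 0.26, Col5a1 −0.70 to 0.49, Col5a2 −0.57 to 0.48, Col6a1 −0.59 to 0.38, Col6a2 −0.51 to 0.54, Col6a3 −0.74 to 0.30, Col8a1 −0.28 to 0.18 and Col8a2 −0.36 to 0.68. Those of Cnot3 RIP against Input ranged for Col12a1 −0.35 to 1.16, Col14a1 −0.30 to 0.74, Col15a1 −0.34 to 0.98, Col18a1 −0.36 to 0.84, Col1a1 −0.50 to 0.89, Col1a2 −0.44 to 0.66, Col3a1 −0.54 to 0.79, Col4a1 −0.49 to 0.94, Col4a2 −0.44 to 0.94, Col4a3 −0.53 to 0.47, Col4a6 −0.22 to 0.9954, Col5a1 −0.28 to 0.92, Col5a2 −0.28 to 0.77, Col6a1 −0.40 to 0.57, Col6a2 −0.53 to 0.53, Col6a3 −0.072 to 0.97 and Col8a1 −0.42 to 0.040. Those of IgG RIP against Input ranged for Col15a1 −0.074 to 0.86, Col18a1 −0.87 to 0.67, Col1a1 −0.11 to 0.76, Col1a2 −0.10 to 0.55, Col3a1 −0.29 to 0.60, Col4a1 −0.28 to 0.70, Col4a6 −0.87 to 0.34, Col5a2 −0.0064 to 0.58, Col6a1 −0.0013 to 0.38 and Col6a2 −0.29 to 0.24.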
